A study of Mus musculus with 26 samples.

Results

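Imprinted genes of fetal growth were followed through 4 BLIMP1 lineages of the mouse. The set held 10 genes, chosen by name in the deposited expression table (Igf2, H19, Igf2as, Cdkn1c, Dlk1, Meg3, Peg3, Grb10, Plagl1 and Igf2r). They were chosen with earlier results of these data known. All 10 were found among 25146 gene lines with a value in each of 26 libraries. An imprinted gene is read mainly from 1 parental copy. Igf2, Dlk1, Peg3 and Plagl1 are read mainly from the paternal copy, and H19, Cdkn1c, Meg3, Grb10 and Igf2r mainly from the maternal copy in most mouse tissues. The family is known for strong activity in fetal organs and silencing after birth, with paternally read members that tend to promote growth and maternally read members that tend to restrain it. The libraries do not separate the parental copies.

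The 26 mouse libraries (3' RNA-seq amplified from 1 ng of RNA) fell into 13 sorted groups of 2 replicates, from 4 lineages that turn on the repressor BLIMP1. Intestinal, retinal and splenic cells all came from C57BL/6 mice homozygous for EGFP-BLIMP1, a reporter joined to the N terminus of BLIMP1, so no group of these tissues has an unmodified Prdm1 gene. Intestinal epithelium was sorted at E16.5 as reporter-positive EpCAM+ cells, and at P3 and P14 as EpCAM+ cells labelled BLIMP1-negative, so age and gate change together between E16.5 and P3. The design text of the series names the P3 and P14 intestine embryonic and the sample titles do not; the titles were followed, and the age meaning of each intestinal step rests on them. Photoreceptor precursors were sorted as GFP+ cells at P0, as GFP+CD73- cells at P4, and as CD73+ cells at P4, P6 and P10. The B cell group was B220+ splenocytes of mice 8 to 10 weeks old. The Blast (GFP-CD138-), prePB (GFP+CD138-) and PB (GFP+CD138+) groups were sorted after 3 days with LPS at 10 ng/mL and IL-4 at 2 ng/mL. The d2 PGCLC, germ cell-like cells on day 2 of induction, came from a C57BL/6 and 129 line with Blimp1-mVenus, stella-ECFP and Rosa26-rtTA, sorted for BV. Their medium held BMP4 and BMP8A at 500 ng/mL, SCF at 100 ng/mL, LIF at 1000 U/mL and EGF at 50 ng/mL. The labels do not state whether the 2 replicates of a group were separate animals or cultures, and a p-value therefore speaks only for the spread seen among these libraries.

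Levels are in RPM, the reads of a gene scaled to a fixed library total. Depth ran from 1.72 to 6.04 M reads (median 3.49 M), so that 1 read was worth 0.166 to 0.583 RPM and a value under 2 RPM rests on a few reads. Summed markers followed the labels: intestinal epithelial markers reached 6540 to 9054 RPM in the intestine, photoreceptor markers 4061 to 26672 RPM in the retina and B lineage markers 2909 to 12445 RPM in the B lineage. Germ cell-like markers summed to 735 and 765 RPM in d2 PGCLC. That list includes Prdm1, and its sum reached 509 RPM in retina and 244 RPM in the B lineage. Intestinal epithelial markers summed to 783 to 885 RPM in d2 PGCLC. Prdm1, the reporter gene, stood at 93.5 and 107 RPM in E16.5 intestine, 46.2 and 71.3 at P3 and 21.4 and 16.9 at P14. The P3 and P14 libraries labelled BLIMP1-negative were thus not without Prdm1 RNA. A change is called, and written as rose or fell, at an adjusted p under 0.05 (limma, Benjamini-Hochberg over all genes tested, two-sided) with a log2 fold change of at least 1 in size. Log2 fold changes are of RPM + 1 and are given ± SE. In such sorted bulk samples, fewer cells of a type and less RNA per cell cannot be told apart.

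The members sit in 7 chromosomal places on mm10 (GRCm38.p6, RefSeq positions). H19 (Entrez ID 14955; chromosome 7, 142575530 to 142578146), Igf2 (16002; 142650768 to 142666816) and the antisense transcript Igf2as, listed by RefSeq as Igf2os (111975; 142659680 to 142670356), are neighbours. Cdkn1c (12577; 143458339 to 143461059) lies further along the same chromosome, and Peg3 (18616; 6703892 to 6730462) lies near its other end. Dlk1 (13386; 109452485 to 109463336) and Meg3 (17263; 109540996 to 109571729) are neighbours on chromosome 12. Grb10 (14783) spans 11930499 to 12037428 on chromosome 11, Plagl1 (22634) spans 13090832 to 13131694 on chromosome 10, and Igf2r (16004) spans 12682406 to 12769706 on chromosome 17. H19, Igf2as and Meg3 are long noncoding RNAs and the other members code for proteins.

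Promoter sequence from RefSeq (GRCm38.p6) matched 7 of the 10 members; H19, Cdkn1c and Igf2as were not among them. The 4 runs printed here are the 250 bases before a start site of Igf2, Meg3, Grb10 and Igf2r, which hold no annotated exon and differ in base makeup and motifs. They are Igf2 at chr7:142657497-142657746 (minus strand), Meg3 at chr12:109540746-109540995 (plus strand), Grb10 at chr11:12037421-12037670 (minus strand) and Igf2r at chr17:12769707-12769956 (minus strand). Capitals mark the Sp1 motif GGGCGG in Igf2, Grb10 and Igf2r, and the TATA box motif TATAAA in Meg3, on either strand. The last run is 30 bases from within the 250 bases before the Peg3 start, chr7:6730602-6730631 (minus strand). It holds the PLAGL1 motif GGGGCCCC in capitals, with its first base at -201 from the start. Those 250 bases hold 104 annotated exon bases.
Igf2: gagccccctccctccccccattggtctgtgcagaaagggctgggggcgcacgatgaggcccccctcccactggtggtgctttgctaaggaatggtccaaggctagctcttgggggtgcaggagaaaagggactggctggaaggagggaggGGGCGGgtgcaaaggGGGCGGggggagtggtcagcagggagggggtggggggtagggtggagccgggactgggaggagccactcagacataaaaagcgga
Meg3: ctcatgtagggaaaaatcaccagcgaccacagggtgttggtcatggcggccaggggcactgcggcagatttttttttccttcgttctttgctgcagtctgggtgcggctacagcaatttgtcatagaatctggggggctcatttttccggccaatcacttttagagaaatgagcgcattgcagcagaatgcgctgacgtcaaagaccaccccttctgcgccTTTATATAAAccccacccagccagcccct
Grb10: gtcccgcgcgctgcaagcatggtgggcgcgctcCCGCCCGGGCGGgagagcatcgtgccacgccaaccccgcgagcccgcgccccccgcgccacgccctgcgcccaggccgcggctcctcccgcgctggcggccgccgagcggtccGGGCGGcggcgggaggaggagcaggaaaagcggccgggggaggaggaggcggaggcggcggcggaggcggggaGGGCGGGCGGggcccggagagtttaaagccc
Igf2r: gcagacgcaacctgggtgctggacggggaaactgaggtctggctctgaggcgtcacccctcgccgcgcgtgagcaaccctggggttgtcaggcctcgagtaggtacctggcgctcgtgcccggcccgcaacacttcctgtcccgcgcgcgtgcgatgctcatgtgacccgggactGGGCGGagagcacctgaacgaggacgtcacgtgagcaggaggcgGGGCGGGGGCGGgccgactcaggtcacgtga
Peg3: gactctgcttgGGGGCCCCtaacactgact

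Motif letters were searched on both strands of 12 member windows of 300 bases, each 250 bases before and 50 after a start. GGGCGG stood in 5 of the 12, against 35.7% of 32851 mouse promoter windows of that length. TATAAA stood in 1 of 12 (Meg3) against 13.6%, and GGGGCCCC in 1 of 12 (Peg3) against 1.08%. The CTCF core letters GGNGGCAG were in 2 of 12 against 12.6%, and the BLIMP1 core GTGAAAG in 1 of 12 (a second Meg3 start) against 4.24%. A match is a run of letters and not a shown binding site. The 12 windows held 1 to 45 CpG (median 13), with 45 and 9 in the 2 Grb10 windows and 34 in that of Igf2r, where the median of all promoter windows was 7.

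In E16.5 intestine the 10 members together made 12110 and 12620 RPM, that is 1.21% and 1.26% of all reads. The sum was 356 and 321 RPM at P3 and 89.0 and 89.1 RPM at P14. Retinal precursors summed to 1244 and 1060 RPM at P0 and to 290 and 279 RPM at P10, and d2 PGCLC to 1082 and 1073 RPM. B lineage libraries summed to 9.75 to 42.3 RPM. Different members made up these sums: Igf2, H19 and Cdkn1c in fetal intestine, Meg3 and Grb10 in newborn retina, and Peg3, Grb10, Meg3 and Cdkn1c in d2 PGCLC.

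**Figure D1:**
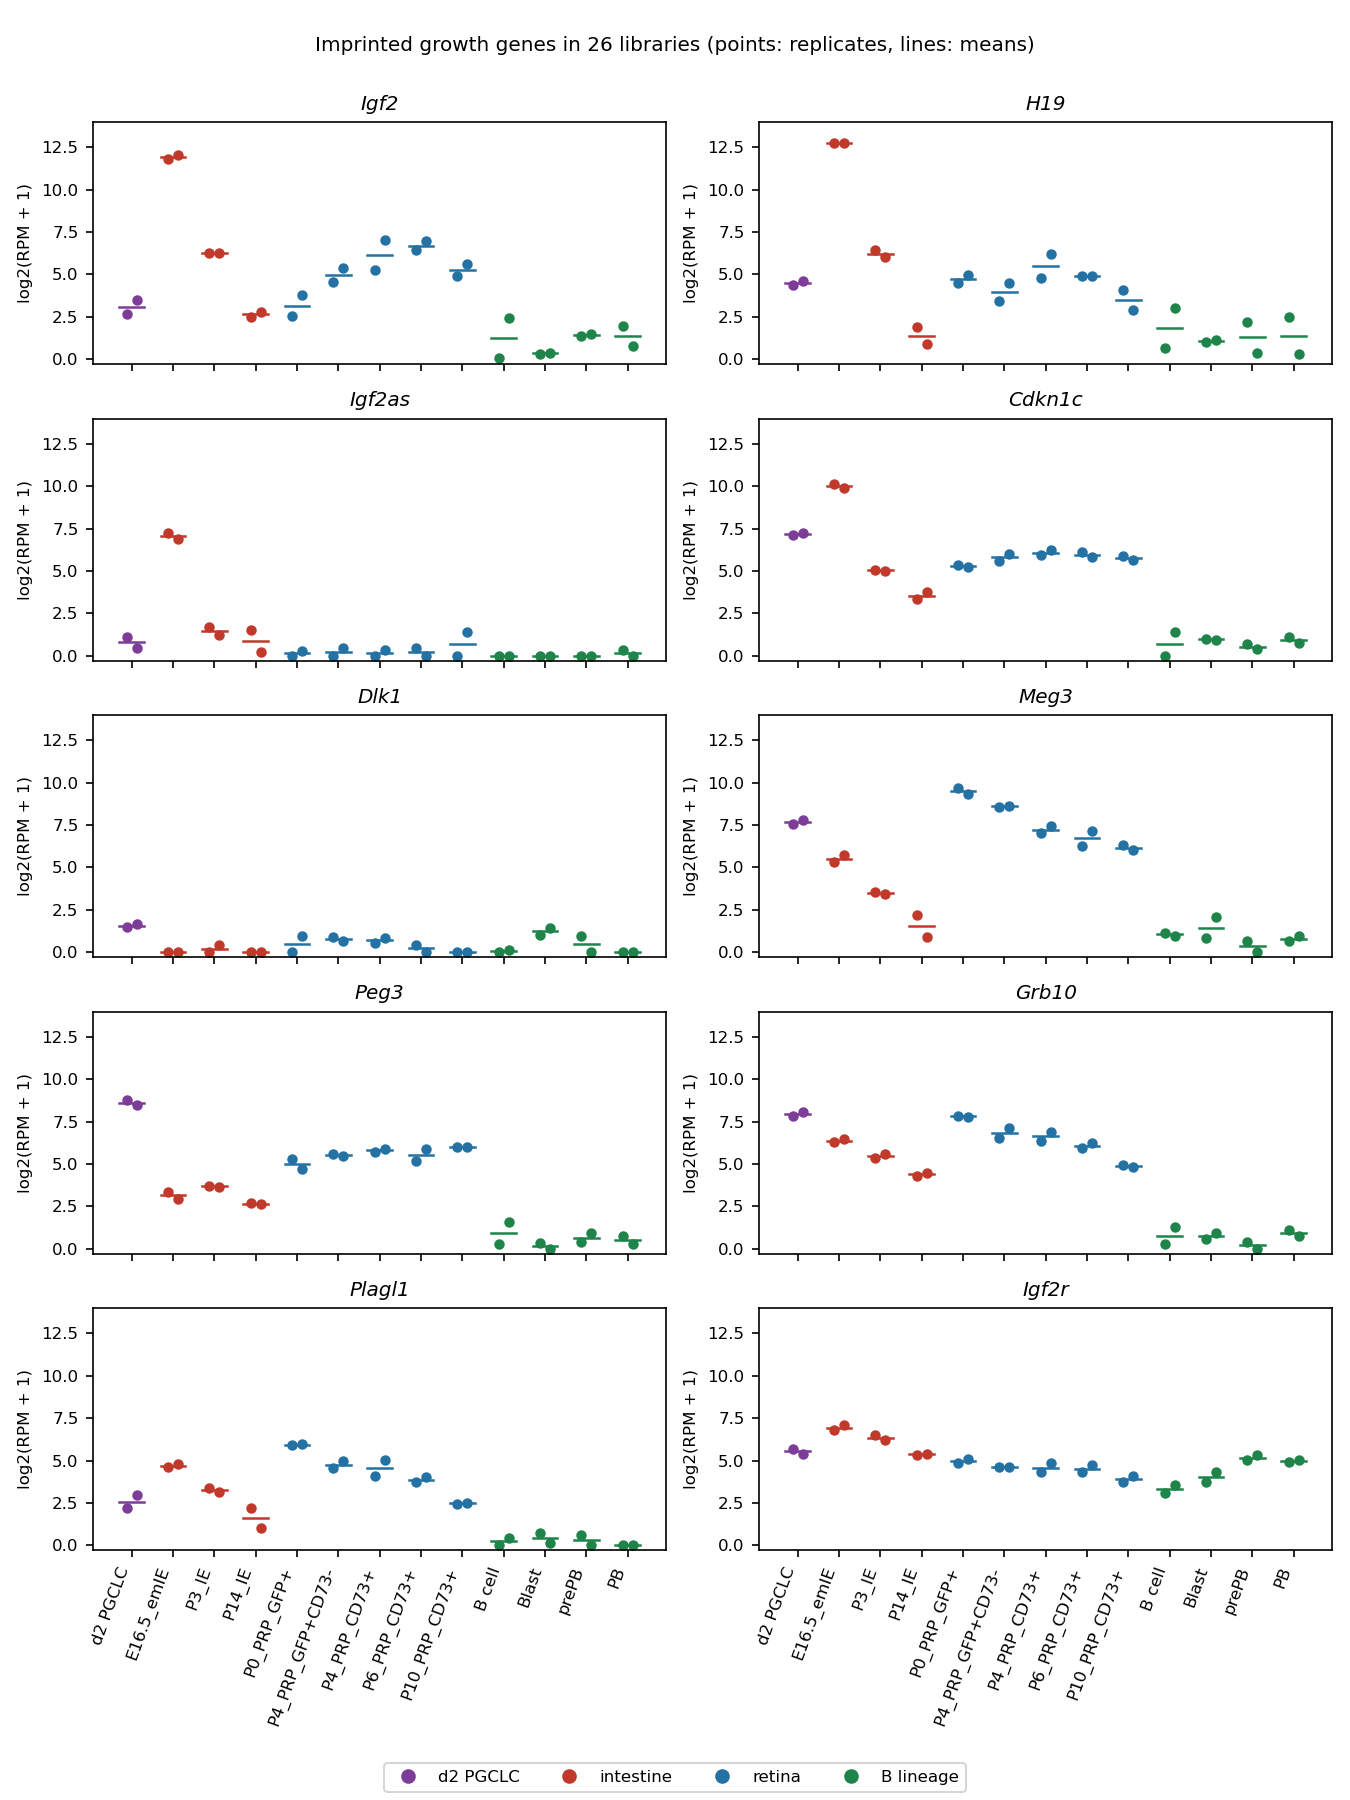
Level of each member as log2(RPM + 1) in the 13 groups, coloured by lineage; points are the 2 replicates and the line is their mean. Igf2, H19, Igf2as, Cdkn1c and Igf2r are highest in E16.5 intestine, Meg3 and Plagl1 in P0 retina, and Peg3 and Grb10 in d2 PGCLC.

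Between E16.5 and P3 intestine, 6 of the 9 members tested fell and 0 rose, where 20.8% of all 10481 genes tested were called (8.2% lower). One of the 6, Igf2as, passed the filter on low values through the E16.5 libraries alone and so had to be lower; without it 5 of 8 fell. The median log2 fold change of these 8 was -1.74, beside 0.11 over all genes. From P3 to P14, within the same gate, 6 of 9 fell and 0 rose, against 4.4% of all genes called (1.99% higher, 2.4% lower). The median there was -1.56 over the 8 and -0.08 over all genes. Over the whole span 8 of 9 fell, against 22.3% called (10.4% lower), or 7 of 8 without Igf2as, and Peg3 was the member not called.

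The retina gave a mixed picture. P4 GFP+CD73- cells had 1 member higher and 1 lower than P0 cells among 8 tested, where 11% of 11704 genes were called (5.24% higher, 5.77% lower). P4 CD73+ cells had 1 higher and 1 lower than P4 GFP+CD73- cells, against 5.86% of all genes (3.43% higher, 2.43% lower). From P4 to P6 within the CD73+ gate limma called 0 of 8, against 2.7% of all genes (1.56% higher, 1.14% lower), and 3 members had an unadjusted p under 0.05 (Plagl1, Grb10 and Meg3, all with negative log2 fold changes). From P6 to P10, 4 of 8 fell and 0 rose, against 11% called (3.33% higher, 7.62% lower). Over P0 to P10, 2 rose and 5 fell, where 35.9% of all genes were called (15.8% higher, 20.1% lower). The gate changed from GFP+ at P0 to CD73+ at P10, so age and gate cannot be told apart in any P0 to P10 change.

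**Figure D2:**
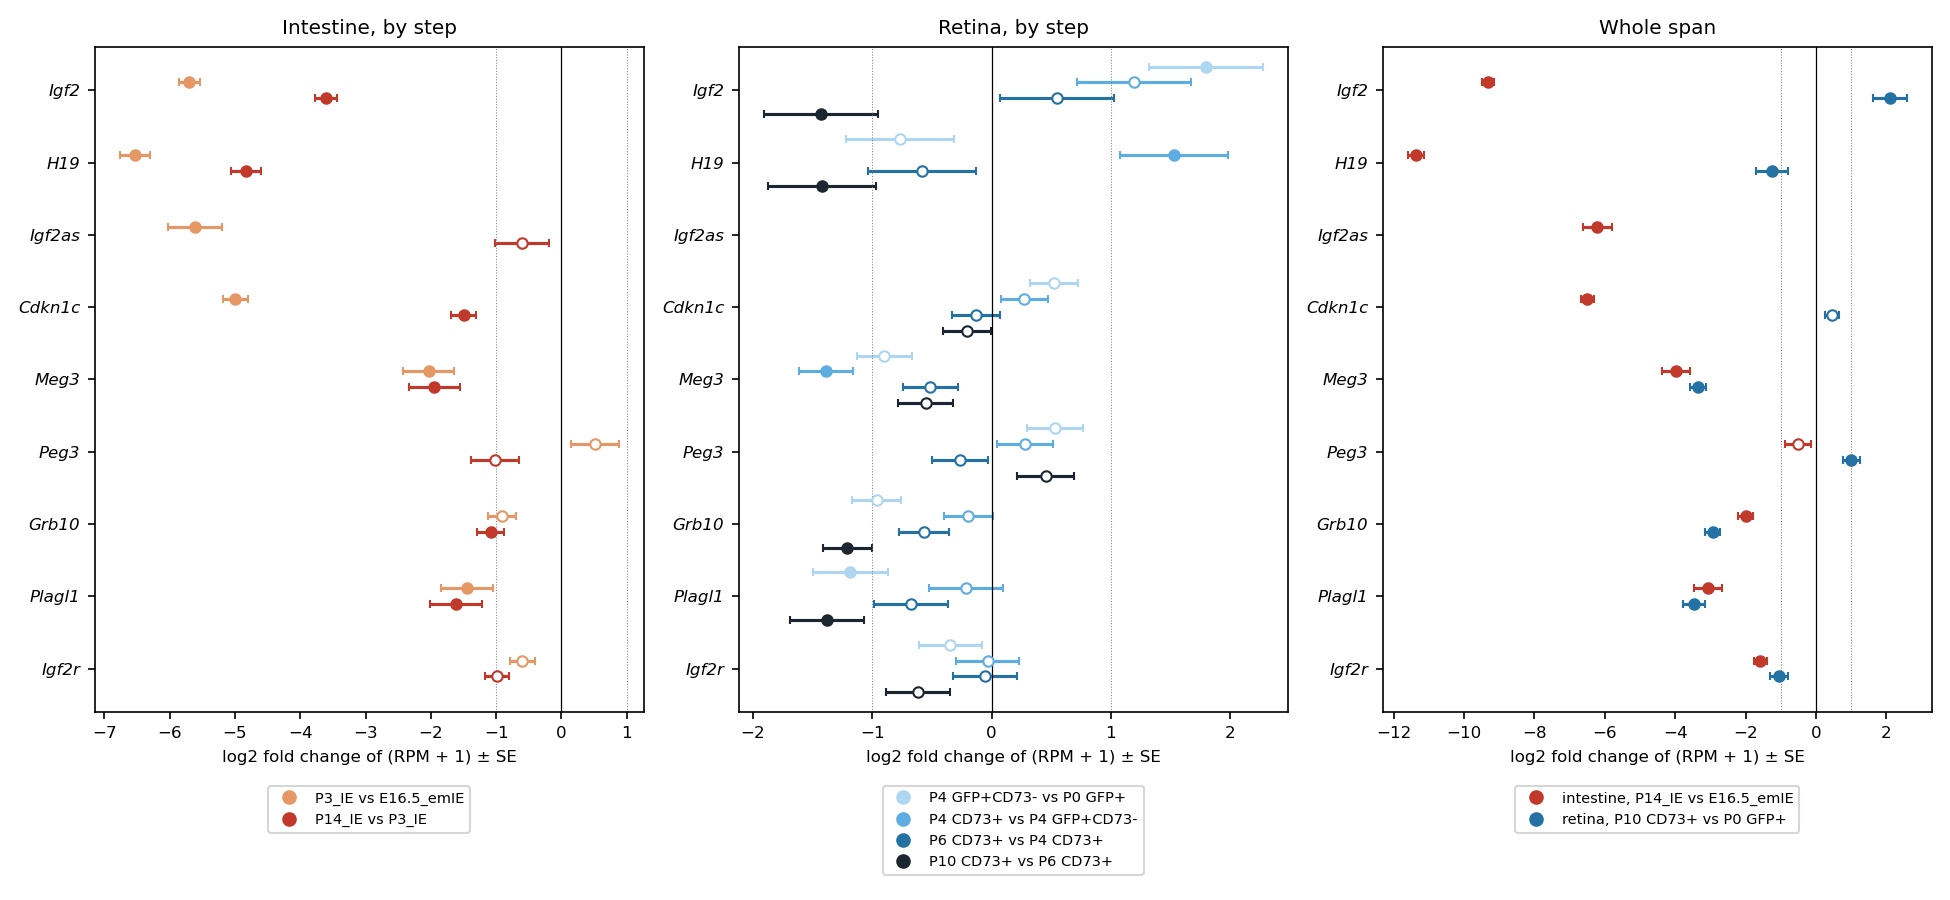
Log2 fold changes of (RPM + 1) ± SE for each tested member by age step in intestine and retina and over each whole span; filled points are called changes and dotted lines mark a log2 fold change of 1 in size. Over the whole span Igf2 lies at -9.31 in intestine and at +2.11 in retina, while Meg3, Grb10, Plagl1 and Igf2r lie below 0 in both.

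Igf2 encodes insulin-like growth factor 2, the main fetal growth ligand of the family. It stood at 3649.6 and 4262 RPM in E16.5 intestine, 74.9 and 75.1 at P3, and 4.58 and 5.96 at P14. Each age was separate from the next, and the P14 libraries overlapped those of d2 PGCLC (5.24 and 10.1 RPM). The P3 to P14 step within the gate labelled BLIMP1-negative was a fall with a log2 fold change of -3.61 ± 0.17 (limma adjusted p = 6.7e-13). The E16.5 to P14 change was -9.31 ± 0.17 (limma adjusted p = 4.0e-22).

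In retina Igf2 followed the opposite course at first. P0 cells had 4.75 and 12.8 RPM, P4 GFP+CD73- cells 22.2 and 40.3, P4 CD73+ cells 37.9 and 129, P6 cells 85.6 and 123, and P10 cells 29.1 and 48.1. The P0 and P4 GFP+CD73- libraries did not overlap, and Igf2 rose (log2 fold change 1.80 ± 0.48, limma adjusted p = 0.013). The 2 P4 gates overlapped and the gate difference was not called (1.197 ± 0.48, limma adjusted p = 0.14). Igf2 then fell from P6 to P10 (-1.43 ± 0.48, limma adjusted p = 0.045) and was still higher at P10 than at P0 (2.11 ± 0.48, limma adjusted p = 0.0014). The P6 to P10 call was lost without any 1 of the 4 libraries compared (-1.79 to -1.08), without a filter on low values, with pseudocount 0.5, in a fit of all 26 samples and under both scaling alternatives. The P0 to P4 call was lost without a filter on low values, without P0 replicate 1 (1.17) and without P4 GFP+CD73- replicate 2 (1.38).

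H19 is the noncoding RNA beside Igf2 and is read from the other parental copy under shared enhancers. It stood at 6903 and 6971 RPM in E16.5 intestine, 84.7 and 63.9 at P3, and 2.75 and 0.828 at P14. The libraries of the 3 ages did not overlap, and H19 fell again from P3 to P14 (log2 fold change -4.83 ± 0.23, limma adjusted p = 6.7e-13). Over the whole intestinal span H19 had the largest change of the members, -11.37 ± 0.23 (limma adjusted p = 2.7e-21).

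Retinal H19 had 21.7 and 30.0 RPM at P0, 9.65 and 21.9 in P4 GFP+CD73- cells, 27.1 and 71.4 in P4 CD73+ cells, 29.3 and 29.0 at P6, and 16.1 and 6.39 at P10. It was higher in CD73+ than in GFP+CD73- cells at P4 (log2 fold change 1.53 ± 0.45, limma adjusted p = 0.039), a call lost without P4 CD73+ replicate 2 (0.85, adjusted p = 0.37) or P4 GFP+CD73- replicate 1 (0.98, adjusted p = 0.35), without a filter or in a fit of all 26 samples. From P6 to P10 it fell (-1.42 ± 0.45, limma adjusted p = 0.035), as it did from P0 to P10 (-1.24 ± 0.45, limma adjusted p = 0.029). The P6 to P10 call was lost without either P6 library (-1.42 and -1.43) or P10 replicate 2 (-0.82), and the P0 to P10 call without P0 replicate 2 (-1.01) or P10 replicate 2 (-0.63). Both were lost without a filter and in a fit of all 26 samples, the first also under both scaling alternatives and the second with pseudocount 5.

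The proportion of the 2 neighbours was read as a ratio within each library with at least 5 RPM of both. The ratio of H19 to Igf2 signal was 1.89 and 1.64 in E16.5 intestine and 1.13 and 0.852 at P3. In P0 retina it was 2.345 in replicate 2, and replicate 1 had Igf2 under 5 RPM. It was 0.434 and 0.544 in P4 GFP+CD73- retina and 0.714 and 0.556 in P4 CD73+ retina. At P6 it was 0.342 and 0.235, and at P10 0.554 and 0.133, where the replicates lay far apart. In d2 PGCLC it was 3.78 and 2.35. The ratio is of 3' signal, so it compares libraries and gives no molar amounts.

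Igf2as runs antisense to Igf2, and 7124 bases of the genes overlap (GENCODE M21). Whether counting used strand is not given in the sources, so reads of the pair cannot be told apart. Igf2as was listed at 150 and 119 RPM in E16.5 intestine and at 2.24 RPM or less in the other 24 libraries. Its level was 4.10% and 2.80% of the Igf2 level at E16.5 and 2.99% and 1.79% at P3. It stood at 1.83 and 0.166 RPM at P14. Since only the E16.5 libraries let it pass the filter, its lower level after E16.5 is given by these values alone and not by a test.

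Igf2r, the receptor that carries IGF2 to lysosomes for breakdown, had a flatter course. It stood at 113 and 133 RPM in E16.5 intestine, 89.2 and 73.0 at P3, and 39.1 and 41.6 at P14. No libraries of neighbouring ages overlapped, but neither single step reached a log2 change of 1 (-0.60 ± 0.18 and -0.99 ± 0.18). Over the whole span it fell (-1.58 ± 0.18, limma adjusted p = 2.7e-07). In retina Igf2r went from 27.6 and 32.8 RPM at P0 to 12.5 and 15.8 at P10, a fall of -1.05 ± 0.27 on the log2 scale (limma adjusted p = 0.0032), and not called without P0 replicate 2 (-0.93) or P10 replicate 1 (-0.89), with pseudocount 5 (-0.88) or after median-of-ratios scaling (-0.95) or quantile normalization (-0.91). Igf2r also overlaps an antisense RNA, Airn, by 28354 bases, and Airn was listed at 4.04 RPM or less throughout.

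Igf2r was also the only member tested in the B lineage. B cells had 7.48 and 10.8 RPM, Blast 12.4 and 19.4, prePB 31.4 and 39.0, and PB 29.2 and 31.9. It rose from Blast to prePB (log2 fold change 1.12 ± 0.29, limma adjusted p = 0.015), where 10.3% of 9871 genes were called (4.43% higher, 5.83% lower). That call was lost with pseudocount 5, without a filter on low values, without Blast replicate 1 (0.82, adjusted p = 0.11) and without prePB replicate 2 (0.97, adjusted p = 0.11). Blast against B cells gave 0.72 ± 0.29 (limma adjusted p = 0.049; 34.1% of genes called, 12.3% higher and 21.8% lower) and PB against prePB -0.19 ± 0.29 (limma adjusted p = 0.65; 13% called, 1.26% higher and 11.7% lower). In these 3 steps the median of all genes was -0.18, -0.24 and -0.39 in order, and it came to about 0 after scaling by median of ratios, which turned the PB value to 0.23. The complete lines used here summed to as little as 650799 RPM in PB. The other members reached at most 6.98 RPM (H19) in any B lineage library, and the filter kept none of them.

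Grb10 encodes an adaptor that dampens signalling from the insulin and IGF1 receptors. It was highest in d2 PGCLC (230 and 264 RPM) and P0 retina (224 and 221). In intestine it stood at 77.7 and 88.0 RPM at E16.5, 40.4 and 47.1 at P3, and 18.9 and 21.2 at P14. The E16.5 to P3 change of -0.91 ± 0.21 was under the size threshold, the P3 to P14 step was a fall (-1.09 ± 0.21, limma adjusted p = 0.0015; not called without P3 replicate 2, -0.98, or with pseudocount 5, -0.96), and the whole span gave -1.99 ± 0.21 (limma adjusted p = 6.6e-08). In retina the 2 P4 gates held 91.8 and 141 RPM (CD73-) and 82.5 and 120 RPM (CD73+), P6 held 60.8 and 73.1, and P10 held 29.4 and 27.3. Grb10 fell from P6 to P10 (-1.21 ± 0.21, limma adjusted p = 7.2e-04) and over P0 to P10 (-2.93 ± 0.21, limma adjusted p = 7.5e-09).

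Cdkn1c encodes p57, an inhibitor of cyclin-dependent kinases that holds cells out of the cycle. Its levels were 1143 and 961 RPM in E16.5 intestine, 32.8 and 31.0 at P3, and 9.15 and 12.4 at P14. Both steps were falls (log2 fold changes -5.00 ± 0.19 and -1.50 ± 0.19, limma adjusted p = 9.4e-16 and 8.8e-06). In retina Cdkn1c stayed between 36.3 and 74.9 RPM in all 10 libraries, with 39.8 and 36.3 RPM at P0 and 57.9 and 48.1 at P10. No retinal step was called, and the P0 to P10 value was 0.46 ± 0.20 (limma adjusted p = 0.062). d2 PGCLC held 136 and 152 RPM, second to fetal intestine.

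Proliferation genes were summed beside Cdkn1c. Their sum over 5 genes was 272 and 265 RPM at E16.5, 605 and 825 at P3 and 700 and 716 at P14 in intestine. In retina it went from 1905 and 1579 RPM at P0 to 12.2 and 8.24 RPM at P10, while Cdkn1c kept the range above.

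Plagl1 encodes a zinc finger transcription factor that acts on other imprinted genes. P0 retina was highest (58.6 and 62.3 RPM), followed by P4 GFP+CD73- retina (22.6 and 30.0), E16.5 intestine (23.1 and 26.2) and P4 CD73+ retina (15.7 and 31.7), which overlapped. Intestinal levels were 9.19 and 7.68 RPM at P3 and 3.61 and 1.04 at P14, and both steps were falls (-1.45 ± 0.40 and -1.62 ± 0.40, limma adjusted p = 0.0065 and 0.011). The first call was lost without E16.5 replicate 2 (-1.36) or P3 replicate 2 (-1.33), and the second without either P3 library (-1.50 and -1.73) or P14 replicate 2 (-1.03). Without a filter on low values both were lost (adjusted p = 0.078 and 0.18), and the second also with pseudocount 5 (-0.90). In retina Plagl1 fell at the P0 to P4 step (-1.18 ± 0.31, limma adjusted p = 0.012) and from P6 to P10 (-1.38 ± 0.31, limma adjusted p = 0.0052), with 12.05 and 15.4 RPM at P6 and 4.502 and 4.71 at P10. The P0 to P4 call was lost without P0 replicate 2 (-1.14) or P4 GFP+CD73- replicate 1 (-0.99) or a filter on low values, and the P6 to P10 call without P6 replicate 2 (-1.22) or with pseudocount 5 (-0.96). The P0 to P10 change was -3.46 ± 0.31 (limma adjusted p = 1.2e-07).

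Peg3 encodes a zinc finger protein read from the paternal copy. It stood at 9.23 and 6.79 RPM in E16.5 intestine, 12.1 and 11.4 at P3 and 5.49 and 5.13 at P14, with no step called. In retina it had 37.7 and 25.4 RPM at P0 and 62.6 and 63.6 at P10, and it rose over that span (log2 fold change 1.00 ± 0.24, limma adjusted p = 0.0018). That value lies at the size threshold, and it was not called without P0 replicate 2 (0.73) or P10 replicate 2 (0.99), or with pseudocount 5 (0.92). d2 PGCLC held 441 and 350 RPM, above every other group, and no B lineage library passed 1.93 RPM.

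Meg3 is the maternally read noncoding RNA beside Dlk1, the gene of a transmembrane protein related to Notch ligands. Meg3 was highest in P0 retina (829.7 and 638 RPM), then P4 GFP+CD73- retina (382 and 398), d2 PGCLC (192 and 223) and P4 CD73+ retina (129 and 171). P6 held 76.2 and 141 RPM and P10 78.3 and 63.3. At P4 Meg3 was lower in CD73+ than in GFP+CD73- cells (-1.39 ± 0.23, limma adjusted p = 7.3e-04), and the 2 gates did not overlap. Over P0 to P10, where the gate changed as well, Meg3 fell (-3.35 ± 0.23, limma adjusted p = 4.6e-09).

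In intestine Meg3 went from 39.2 and 51.6 RPM at E16.5 to 10.8 and 9.76 at P3 and 3.66 and 0.828 at P14. Both steps were falls (-2.03 ± 0.39 and -1.95 ± 0.39, limma adjusted p = 2.4e-04 and 0.0018), the second not called without P3 replicate 1 (-1.88) or without a filter on low values (adjusted p = 0.13). Its neighbour Dlk1 reached 1.75 and 2.22 RPM in d2 PGCLC and at most 1.73 RPM elsewhere, so it entered no test.

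**Figure D3:**
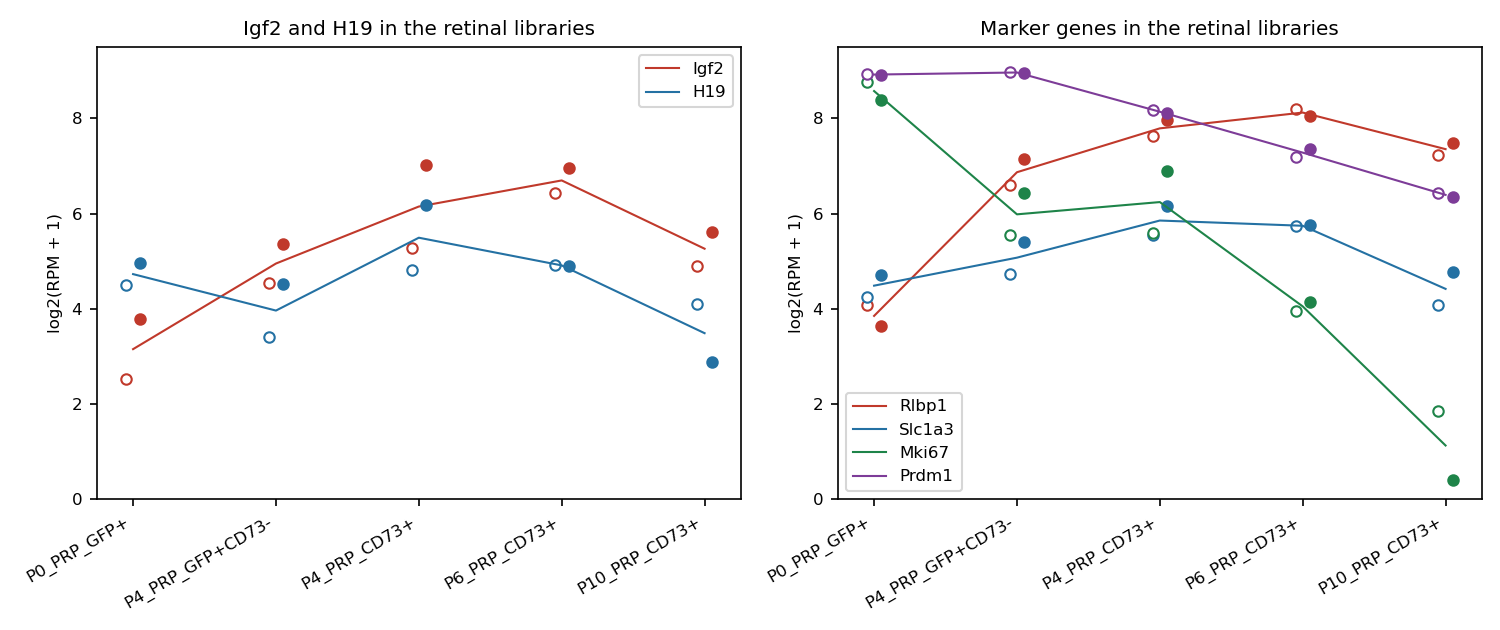
Levels as log2(RPM + 1) of Igf2 and H19 (left) and of the Müller glia genes Rlbp1 and Slc1a3, the proliferation gene Mki67 and Prdm1 (right) in the 5 retinal groups; open points are replicate 1, filled points replicate 2 and lines are means. Igf2 is lowest at P0 and its mean is highest at P6, while Mki67 and Prdm1 are lowest at P10.

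Other cell types' markers were measured beside these courses. A mesenchyme list of 12 genes summed to 19.7 and 56.0 RPM at E16.5, 11.4 and 16.1 at P3 and 22.5 and 14.1 at P14 in intestine. Of the 12, 4 were at 0 in E16.5 replicate 1 and 1 in replicate 2, and Dcn was at 0 in both. The filter kept 2: Acta2, a smooth muscle actin gene, fell from 8.97 and 31.9 RPM at E16.5 to 2.43 and 3.60 at P3 (log2 fold change -2.19 ± 0.47, limma adjusted p = 0.0007). Col3a1, a collagen gene, had 3.85 and 8.34 RPM at E16.5 and was not called (-0.71 ± 0.49). Erythroid genes (6 of 8 listed were in the table) summed to 109.7 and 248 RPM at E16.5, 6.28 and 13.97 at P3 and 61.5 and 1.90 at P14, and the part of mesenchymal and erythroid genes in the falls was not tested. Igf2 stood at 4.58 RPM in P14 replicate 1 and at 5.96 RPM in replicate 2, values that rest on 15 and 36 reads.

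In retina the Müller glia list (5 genes) summed to 217 and 242 RPM at P0, 554 and 554 in P4 GFP+CD73- cells, 439 and 494 in P4 CD73+ cells, 573 and 501 at P6 and 253 and 308 at P10. Rlbp1, a retinoid-binding protein gene of Müller glia, went from 15.8 and 11.4 RPM at P0 to 294 and 263 at P6 and 149 and 177 at P10. The list sum was little higher at P10 than at P0, so the other listed genes together were lower at P10. Rlbp1 therefore does not stand for the whole list. At P4 mean Igf2 was 83.2 RPM in CD73+ and 31.3 RPM in CD73- cells, with overlapping libraries, and the gate difference was not called. The part of Müller glia genes in the Igf2 result was not tested. Nt5e, which encodes CD73, had 8.37 and 18.2 RPM at P0, 145 and 89.2 in the CD73- gate, 323 and 225 in the CD73+ gate at P4 and 396 and 396 at P10. P4 CD73+ replicate 2 was the higher replicate for both Igf2 and H19 and for the proliferation sum (437 against 182 RPM).

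Retinal progenitor markers (6 genes) summed to 1175 and 1278 RPM at P0, 536 and 650 in P4 GFP+CD73- cells, 592 and 819 in P4 CD73+ cells, 974 and 992 at P6 and 646 and 464 at P10. From P0 to P10, 5 of the 6 fell, where 35.9% of all genes were called (20.1% lower). Among them were Hes5, a Notch target (-5.34 ± 0.23), and Sox2, a progenitor transcription factor (-4.47 ± 0.29). The list sum fell far less than Hes5 and Sox2 did. Endothelial markers (8 genes) summed to 107 and 124 RPM at P0 and 30.6 and 29.3 at P10. The sum reached 181 RPM in a P4 or P6 library, so it did not only decline with age. The 3 endothelial genes tested over P0 to P10 fell, against the same 20.1% of all genes, among them the VEGF receptor gene Kdr (-2.20 ± 0.31). Meg3, Grb10 and Plagl1 fell over the same span, and the part of these markers in that was not tested.

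The loss in intestine was set against the retina by testing the difference of the 2 changes in 1 fit of all 26 libraries. For the first step (P3 minus E16.5, against P4 GFP+CD73- minus P0), 3 of 8 members differed and all 3 were lower in intestine, where 23.3% of 14131 genes were called (10% lower). These were Igf2 (-7.50 ± 0.84, limma adjusted p = 6.8e-07), H19 (-5.77 ± 0.98, limma adjusted p = 1.1e-04) and Cdkn1c (-5.52 ± 0.44, limma adjusted p = 1.1e-08). Igf2as is not counted: retinal libraries held 0 to 1.68 RPM, so there was no retinal change to compare. Meg3 was not called (-1.13 ± 0.55, limma adjusted p = 0.13), and Plagl1, Igf2r, Peg3 and Grb10 had differences of -0.26, -0.25, -0.02 and 0.06.

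Over the whole spans (P14 minus E16.5, against P10 minus P0), 4 of 8 differed, all lower in intestine, against 41.8% of all genes called (18.4% lower). Igf2 gave -11.42 ± 0.84, H19 -10.13 ± 0.98, and Cdkn1c -6.95 ± 0.44 (limma adjusted p from 2.9e-11 to 1.7e-08). Peg3 gave -1.51 ± 0.50 (limma adjusted p = 0.016), a call lost without E16.5 replicate 1 (-1.31, adjusted p = 0.066) or P0 replicate 2 (-1.23, adjusted p = 0.08). Grb10 (0.94 ± 0.41), Meg3 (-0.63 ± 0.55), Igf2r (-0.53 ± 0.35) and Plagl1 (0.39 ± 0.56) were not called, which does not show that they changed alike. The ages and gates of the 2 tissues are not matched, and the retina has no fetal sample here.

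Other imprinted genes were called in intestine at a share near that of all genes. Of 63 listed, 28 were tested, and from E16.5 to P14 4 rose and 3 fell (25%, beside 22.3% of all genes, 11.8% higher and 10.4% lower), with a median log2 change of -0.02 beside 0.02 over all genes. Kcnq1, a potassium channel gene of the domain that holds Cdkn1c, had 9.62 and 7.10 RPM at E16.5, 106 and 117 at P3 and 257 and 182 at P14 (log2 fold change over the span 4.55 ± 0.21). Ascl2, a stem cell transcription factor of the crypt from the same region, had 3.08 and 2.47 RPM at E16.5 and 54.9 and 74.2 at P14 (4.11 ± 0.27). Phlda2, a growth-restraining gene of that domain, fell from 16.2 and 15.7 RPM to 1.53 and 5.13 (-2.11 ± 0.48), as did Kcnq1ot1, the antisense RNA within Kcnq1 (-1.45 ± 0.39). Kcnq1 thus rose where Cdkn1c fell. Ascl2 was under 5 RPM at E16.5 and passed the filter through postnatal libraries, and Phlda2 passed mainly through its E16.5 libraries. For both, the direction is given by the levels and not by a test, and they are kept in the counts above.

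In retina 33 of the 63 were tested, and from P0 to P10 6 rose and 8 fell (42.4%, beside 35.9% of all genes, 15.8% higher and 20.1% lower; median 0.28 beside -0.10 over all genes). Zrsr1, a paternally read splicing factor gene, went from 13.9 and 14.1 RPM to 72.5 and 84.2 (2.40 ± 0.24), and Nap1l5 also rose (2.06 ± 0.42). Magel2 was at 45.5 and 14.7 RPM at P0 and at 0 in both P10 libraries. Begain, in the region of Dlk1 and Meg3, went from 23.3 and 86.4 RPM to 0.779 and 2.69 (-4.17 ± 0.54). Magel2 and Begain were under 5 RPM at P10 and passed the filter through earlier groups. Their lower levels are given by these values and not by a test.

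The IGF axis list held 27 genes of the ligands, receptors, binding proteins and mRNA-binding proteins of the pathway. In intestine 12 were tested, and 2 rose and 5 fell over the span (58.3%, beside 22.3% of all genes; median -0.86 beside 0.02). Igf1r, the signalling receptor for both ligands, went from 10.4 and 8.03 RPM at E16.5 to 29.1 and 26.3 at P3 and 23.5 and 22.02 at P14 (1.23 ± 0.28). Igfbp4, which binds and holds back IGFs, rose as well (2.48 ± 0.26). Igf2bp1 and Igf2bp3, which bind Igf2 and other mRNAs in fetal cells, fell (-3.39 ± 0.50 and -1.43 ± 0.16).

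In retina 16 IGF axis genes were tested, and 2 rose and 9 fell over P0 to P10 (68.8%, beside 35.9% of all genes; median -2.13 beside -0.10). Igf1, the other growth ligand, had 0 and 0.466 RPM at P0 and 23.9 and 22.7 at P10 (4.33 ± 0.45). Its P0 libraries were under 5 RPM, so Igf1 passed the filter through later groups. Its higher level is given by these values and not by a test, and it is kept in the count above. Both ligands were higher at P10 than at P0. Igfbp2, a binding protein of progenitors and glia, fell from 154 and 401 RPM to 6.49 and 5.38 (-5.18 ± 0.31), and Igf2bp1 fell by 4.25 on the log2 scale. Ide, the insulin-degrading enzyme, rose (1.09 ± 0.17).

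Among 7 CDK inhibitor genes 5 were tested in each tissue. In intestine Cdkn1b, which encodes p27, rose (1.22 ± 0.33) and 0 fell (20%, beside 22.3% of all genes; median 0.66 beside 0.02), while Cdkn1c fell as described. In retina 0 rose and 3 fell (60%, beside 35.9% of all genes; median -1.66 beside -0.10), among them Cdkn3, a phosphatase of dividing cells (-4.35 ± 0.46), and Cdkn1a, which encodes p21 (-2.64 ± 0.44). Of 13 factors that set or keep imprints, 8 were tested in intestine, and 3 rose and 1 fell (50%, beside 22.3% of all genes; median 0.17 beside 0.02). Dnmt1, the maintenance DNA methyltransferase, and its partner Uhrf1 rose (1.56 ± 0.19 and 1.33 ± 0.22) and Tet2, a dioxygenase that acts on methylated cytosine, fell (-1.06 ± 0.40). In retina 9 were tested, and 2 rose (Tet3 1.36 ± 0.14, Dnmt3a 1.24 ± 0.15) and 4 fell, with Uhrf1 at -4.69 ± 0.40 and Trim28 at -1.54 ± 0.16 (66.7%, beside 35.9% of all genes; median -0.56 beside -0.10).

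**Figure D4:**
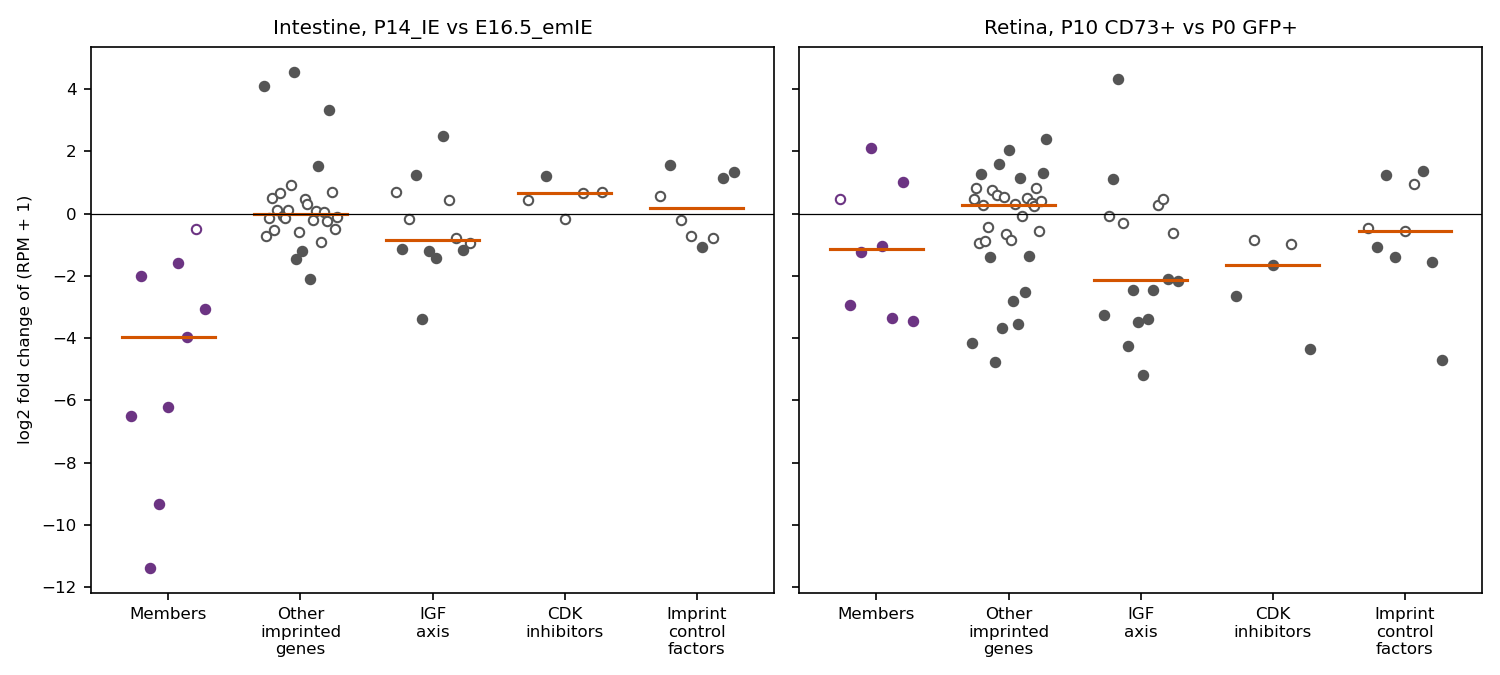
Log2 fold changes of (RPM + 1) over the whole span in each tissue, for the members and the 4 lists; each point is a tested gene, filled points are called, and the orange line is the median of the list. In intestine the median of the 9 tested members is -3.98, and -3.52 without Igf2as, which had to be lower. That of other imprinted genes is -0.02. Members and lists were chosen with earlier results of these data known.

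Likeness between members over the 13 groups was described by Pearson r of mean log2(RPM + 1). Groups share depth, tissue and gate, so r is a description with n = 13. All members but Igf2r were low in the B lineage groups, and part of r can come from those groups alone. Igf2, H19 and Cdkn1c had r of 0.86 to 0.94 in their 3 pairs. Cdkn1c was as like Grb10 (0.88) as it was Igf2 (0.87), and less like Plagl1 (0.82), Meg3 (0.77) and Peg3 (0.76). It could thus not be placed with Igf2 and H19 alone. Igf2 and H19 themselves had only 0.38 to 0.50 with Meg3 and Peg3. Meg3, Peg3, Grb10 and Plagl1 had 0.68 to 0.91 in 6 pairs, and Igf2r had 0.09 to 0.72 with the 8 other members compared. Among 11275 genes the most like Igf2 were 3830431G21Rik (0.97, and 0.95 without E16.5), H19 (0.94, and 0.86 without E16.5) and Pcyt1a (0.94, and 0.88). The most like H19 after Igf2 was Slc34a3 at 0.90, which was 0.66 without E16.5. Igf2as was most like Upk3b at 0.99, which was 0.80 without E16.5. Igf2as was high only at E16.5, so that group largely sets its r. Cdkn1c was most like Bex4 at 0.96, Meg3 like Arl5b at 0.98 and Peg3 like Dsel at 0.96. Grb10 was most like Rala at 0.99, Plagl1 like Sat2 at 0.96 and Igf2r like Egln3 at 0.92 (0.88 without E16.5).

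**Figure D5:**
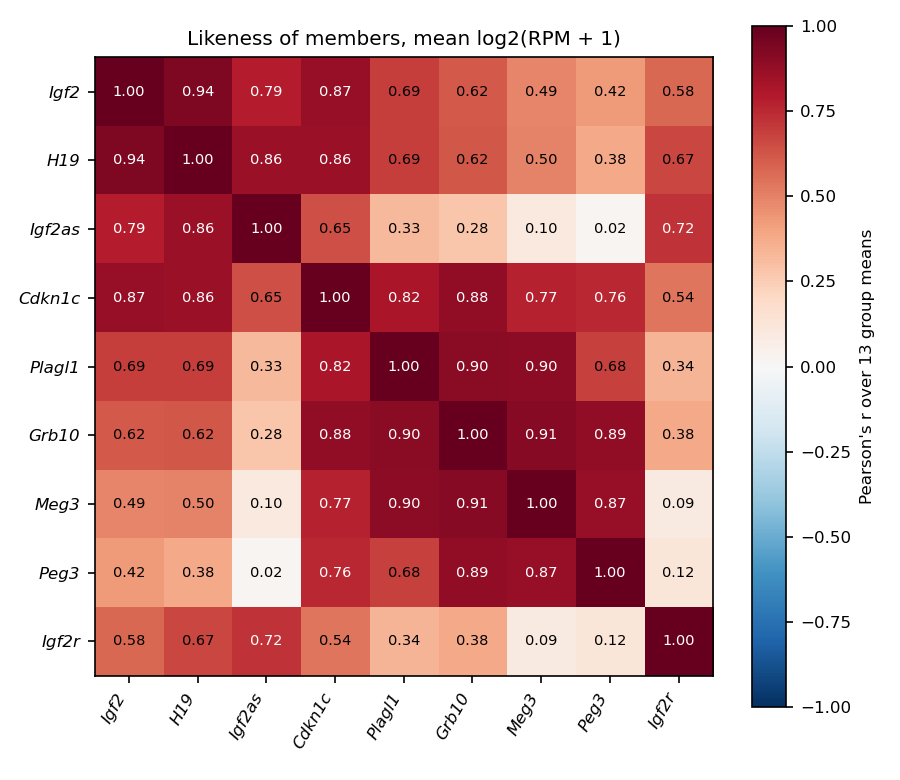
Pearson r of mean log2(RPM + 1) between pairs of members over the 13 groups (n = 13, one value per group). Igf2, H19 and Cdkn1c share r of 0.86 to 0.94, and the lowest value is 0.02, between Peg3 and Igf2as.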

How the data were processed

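The authors deposited an expression signal in RPM, per the file headers. The submitters' processing notes list mm10, TopHat 1.4.1, Cufflinks 2.2.0, Bowtie 1.0.1 and cutadapt 1.11; the counting rule and its strand are not given in the sources. Of 26310 lines, 1164 (4.42%) were incomplete or moved against the header and were left out. Low values (up to 20 reads) were whole multiples of 1 read, within 0.02 read, in 82.9 to 91.3% of cases, so the signal holds fractions of reads and no count test was used. The scale was log2(RPM + 1). Genes reaching 5 RPM in 2 or more samples entered a fit with limma 3.58.1 (R 4.3.3, trend), 1 fit per lineage and 1 of all 26 samples for differences of changes. The script was tested on simulated data. Figures used Python 3.11.15 and matplotlib 3.10.9. Members and gene lists were chosen with earlier results of these data known. Named list genes are the 2 largest called changes in each direction, and like genes have the highest r. Alternatives were pseudocount, filter, scaling, a joint fit, replicate block and left-out replicates.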

Additional observations from a re-analysis of the deposited data

Results flagged for a closer look

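Members whose change differed between intestine and retina, by the test of the difference in a limma fit of all 26 libraries, are listed here as log2 differences (intestine minus retina). For the step from E16.5 to P3 against P0 to P4 GFP+CD73-, they were Igf2 (-7.50), H19 (-5.77), Igf2as (-5.69) and Cdkn1c (-5.52). For E16.5 to P14 against P0 to P10, they were Igf2 (-11.42), H19 (-10.13), Cdkn1c (-6.95), Igf2as (-6.77) and Peg3 (-1.51). Igf2as passed the filter on low values only through E16.5 intestine and had 0 to 1.68 RPM in retina, so its values compare no retinal change. In intestine the gate changed with age between E16.5 and P3, and age and gate cannot be told apart there. The same holds in retina from P0 (GFP+) to P10 (CD73+).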

How the results depend on the processing

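The calls of Igf2, H19 and Cdkn1c in E16.5 to P3 and E16.5 to P14 intestine and in both differences of changes held in each alternative run. The counts here include Igf2as, which passed the filter through the E16.5 libraries alone and was not tested with either of them left out. Of all fold changes under the alternatives, 1022 kept direction and call, 59 lost a call, 13 gained one and 26 changed sign, and the cause was not tested.

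Counts of called members in intestine were 4 to 6 for P3 against E16.5, 4 to 6 for P14 against P3 and 7 to 8 for P14 against E16.5 with single libraries left out (6, 6 and 8 called), and 3 to 4 for the first-step difference (4 called). Without a filter on low values the first 2 were 5 and 4, with Plagl1 lost in both and Meg3 in the second; with pseudocount 5 the second was 4, with Plagl1 and Grb10 lost, and with median-of-ratios scaling the first was 7. Other counts moved as follows. P4 GFP+CD73- against P0 (2 called) gave 0 without a filter on low values and 1 to 2 with single libraries left out. P4 CD73+ against GFP+CD73- (2 called) gave 1 without a filter, 1 with all 26 samples in 1 fit and 1 to 3 with libraries left out. P10 against P6 (4 called) gave 2 without a filter, 2 with all 26 samples, 2 after quantile normalization, 2 after median-of-ratios scaling and 1 to 3 with libraries left out. P10 against P0 (7 called) gave 4 with pseudocount 5 and 4 to 7 with libraries left out. Blast against B cell (0 called) gave 1 without a filter, 1 with quantile normalization and 0 to 1 with libraries left out. The prePB against Blast count (1) was 0 with pseudocount 5, 0 without a filter and 0 to 1 with libraries left out. The whole-span difference (5 called) gave 3 to 5 with libraries left out, with 3 without E16.5 replicate 1.

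Values that changed sign were not called in either fit. Igf2r in PB against prePB was 0.19 after quantile normalization and 0.23 after median-of-ratios scaling. In the first-step difference Peg3 was 0.0015 with pseudocount 0.5 and Grb10 -0.077 with median-of-ratios scaling, and in the whole-span difference Meg3 was 0.46 with pseudocount 5. With single libraries left out, Igf2as in P14 against P3 ranged from -1.24 to 0.038. In P4 CD73+ against GFP+CD73-, Plagl1 ranged from -0.70 to 0.27, Grb10 from -0.50 to 0.11 and Igf2r from -0.29 to 0.22. In P6 against P4 CD73+, Peg3 ranged from -0.61 to 0.081, H19 from -1.26 to 0.10, Igf2 from -0.32 to 1.42, Cdkn1c from -0.29 to 0.031 and Igf2r from -0.31 to 0.20. In the first-step difference, Peg3 ranged from -0.29 to 0.26 and Grb10 from -0.25 to 0.36. In the whole-span difference, Plagl1 ranged from -0.20 to 0.98 and Meg3 from -1.30 to 0.049.

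Same-numbered replicates deviated together only weakly (r from -0.05 to 0.04 in intestine, -0.03 to 0.28 in retina and 0.01 to 0.20 in the B lineage), so the numbers were not taken as pairs. With a replicate block the member calls were the same except in P4 CD73+ against GFP+CD73-, where 3 members were called and Igf2 was added.

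Depth limits values under 2 RPM, and 2 replicates per group limit every test.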
